A study of Mus musculus with 20 samples.

Results

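Epididymal fat, the large gonadal fat depot of male mice, was compared after 14 days and after 2 days of high-fat feeding, by RNA sequencing of whole tissue. The comparison used 8 of the 20 libraries of the study, 4 from day 14 and 4 from day 2, taken by the library names in the labels. Both groups were male C57BL6/J mice, a common inbred strain, that had been moved from chow to the high-fat diet. They differed only in the days on that diet, as far as the labels say. The other 12 libraries came from chow-fed mice (day 0) and from days 4 and 6 of the diet, 4 each, and entered the fit as an estimate of the spread. The labels call the samples biological replicates and give no age, litter or pooling, so p-values measure the spread between these samples, which may in part be technical. Adipocyte markers were abundant in each of the 8 day 14 and day 2 libraries, with at least 1928 CPM (counts per 1000000 counts of the library) of Adipoq, the adiponectin gene, and at least 1002 CPM of Lep, the leptin gene.

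White fat stores triglyceride in large adipocytes held in a mesh of collagens, basement membrane and elastic fibres, which must be remodelled when adipocytes enlarge. Fatty acid and cholesterol synthesis genes are driven by the SREBP transcription factors, while mitochondria in adipocytes supply citrate and ATP for lipid handling. Many matrix genes are expressed by fibroblast-like progenitors and mesothelium and some also by adipocytes, while lipid genes are expressed mainly by adipocytes. In whole tissue, fewer cells of a type and less RNA per cell cannot be told apart.

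Total counts ranged from 6724707 to 24581101 in the day 14 libraries and from 1916829 to 26798901 in the day 2 libraries, and the means of 14053700.00 and 14280600.00 gave p = 1 in an exact two-sided permutation test. The mitochondrially encoded share of counts averaged 4.79% on day 14 and 5.44% on day 2 (exact permutation p = 0.257, adjusted over both tests 0.514, smallest possible p 0.0286). Day 14 replicates 1 and 2 had 24581101 and 15685851 counts, and replicates 3 and 4 had 9223253 and 6724707. Many of the results below were carried by day 14 replicates 1 and 2, while replicates 3 and 4 lay nearer to day 2. Day 2 replicate 2 stood apart from the other day 2 libraries in lipid synthesis genes, and day 2 replicate 1 had the smallest total. Their part in the results was not tested.

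No gene passed an adjusted p under 0.05 in edgeR's quasi-likelihood test, 0 of 15254 (0%), and the smallest adjusted p was 0.127. An unadjusted p under 0.05 was reached by 1847 genes (12.1%), of which 1045 were higher on day 14 (6.85%) and 802 lower (5.26%). All 4 day 14 libraries lay above all 4 day 2 libraries for 488 genes (3.2%) and below them for 298 (1.95%). DESeq2 on the same counts called 98 genes higher on day 14 (0.642%) and 36 lower (0.236%), limma-voom called 0 (1859 genes at an unadjusted p under 0.05), and limma-voom with quality weights for each library called 640 higher (4.2%) and 520 lower (3.41%). In edgeR, leaving out 1 of the 8 libraries gave 20 calls without day 14 replicate 4, 8 without day 2 replicate 2, 1 without day 14 replicate 3 and 0 in the other 5 fits. The number of genes at an unadjusted p under 0.05 was 1126 without day 14 replicate 1 and 1040 without day 14 replicate 2. The number of calls thus depended on the test and on single libraries. Log2 changes below are those of edgeR, under which no gene is said to have risen or fallen. Some genes are given with a DESeq2 adjusted p alone, and the edgeR adjusted p of each was at least 0.127. The median log2 change over all tested genes was 0.01. These shares over all genes are the background for the list counts below. Some list counts lay near them, such as 2 of 28 macrophage markers higher.

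The 10 genes with the smallest p shared an adjusted p of 0.127 in edgeR, and DESeq2 called each of them at an adjusted p between 0.000845 and 0.00805. Gprc5a, an orphan G protein-coupled receptor gene, had 5.31, 4.95, 3.76 and 5.29 CPM in the 4 day 14 libraries and 0.540, 1.94, 1.40 and 2.22 CPM in the 4 day 2 libraries, a log2 change of 1.52 ± 0.28 (SE). Vasn, whose membrane protein binds TGF-beta, had 55.3, 99.98, 65 and 63.4 CPM on day 14 and 35.6, 32.3, 40.4 and 30.3 CPM on day 2 (log2 change 1.03 ± 0.19). Sncg, which encodes gamma-synuclein, an abundant adipocyte protein that is higher in obesity, had 1239, 1037, 974 and 873 CPM on day 14 and 471, 637, 346 and 485 CPM on day 2 (log2 change 1.09 ± 0.22). In all 3 genes the groups did not overlap, and day 14 replicates 3 and 4 were above every day 2 library as well. The 0.540 CPM of Gprc5a came from day 2 replicate 1, the library with the fewest counts (1916829). That value rests on very few reads, as do other low CPM of that library below. Fgf1, a growth factor that adipose tissue needs to remodel on a high-fat diet, had 128, 124, 99.9 and 97.3 CPM on day 14 and 66.9, 78.2, 83.9 and 67.5 CPM on day 2 (log2 change 0.59 ± 0.12). Medag, an adipogenesis gene, had 36.2, 43.4, 20.4 and 30.8 CPM on day 14 and 17.3, 20.2, 16.4 and 17.2 CPM on day 2 (log2 change 0.88 ± 0.18), with day 14 replicate 3 just above the highest day 2 library. Pxdc1, Smpdl3a, a phosphodiesterase gene, Mafk, a small Maf transcription factor gene, and Klhl13, a ubiquitin ligase adaptor gene, had log2 changes of 1.16, 0.68, 0.74 and 0.72, again with no overlap between the days. Adam23, a disintegrin gene without protease activity, lay on the other side, with 28.3, 24.4, 30.2 and 27.4 CPM on day 14 and 40.5, 35.2, 41.6 and 43 CPM on day 2 (log2 change -0.54 ± 0.11).

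Matrix genes stood higher on day 14 as a group. Of 164 genes in 7 matrix lists 159 were tested and 125 had a positive log2 change, against 51.8% of all tested genes. An unadjusted p under 0.05 was reached by 50 higher (31.4%, against 6.85% of all genes) and by 2 lower (1.26%, against 5.26%), and the median log2 change was 0.32. DESeq2 called 11 of them higher and 0 lower. All 4 day 14 libraries lay above all 4 day 2 libraries for 20 of the 159 (3.2% over all genes). They lay below them for 5 of the 159 (1.95% over all genes), among them Col6a5, Col6a6, Spon1 and Ogn. The count of genes higher at an unadjusted p under 0.05 was 26 without day 14 replicate 1, 28 without replicate 2 and 33 without day 2 replicate 4. The mean level over a list showed the same libraries. For the glycoprotein list it lay 1.07, 1.02, 0.10 and 0.22 above the day 2 mean on the log2 scale in day 14 replicates 1 to 4, against 0.047, 0.16, -0.071 and -0.14 in the day 2 replicates.

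**Figure D1:**
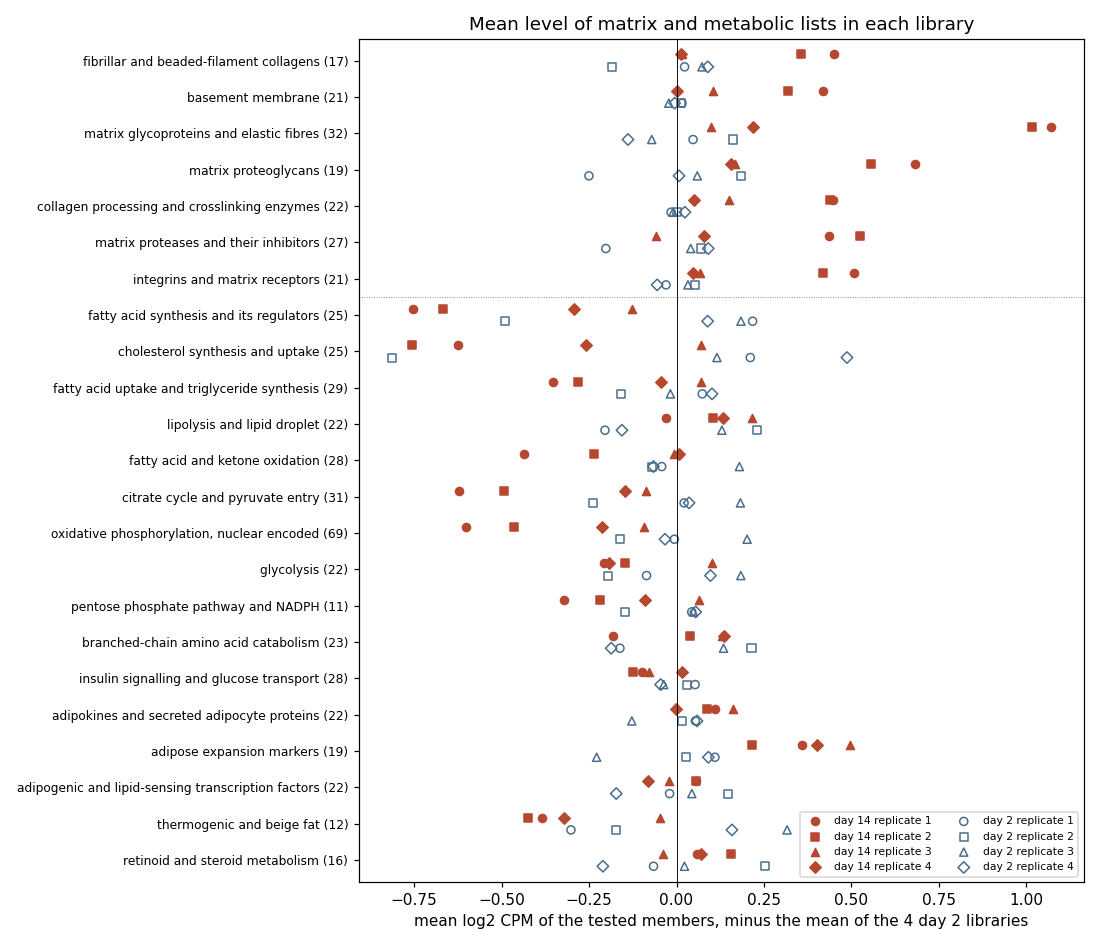
Mean log2 CPM of the tested members of the 7 matrix lists (above the dotted line) and 16 metabolic lists, relative to the mean of the 4 day 2 libraries. Filled red markers are the day 14 libraries and open blue markers the day 2 libraries, with a marker shape for each replicate and the number of members in brackets. Day 14 replicates 1 and 2 (circle and square) lie farthest from 0 in most matrix lists and in the fatty acid synthesis, citrate cycle and oxidative phosphorylation lists. They are at 1.07 and 1.02 for the matrix glycoproteins and at -0.60 and -0.46 for oxidative phosphorylation. In the cholesterol list day 2 replicate 2 lies farthest, at -0.81, against -0.62 and -0.76 in day 14 replicates 1 and 2.

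Among 17 tested fibrillar and beaded-filament collagens, 7 were higher at an unadjusted p under 0.05 and 0 lower, with a median log2 change of 0.37, or 0.24 without day 14 replicate 1. Col3a1, the type III collagen that runs beside type I in soft tissue, had 2272, 2163, 1899.5 and 1939.8 CPM on day 14 and 1382, 1320.4, 1817 and 1349 CPM on day 2 (log2 change 0.50 ± 0.21, adjusted p 0.357). Col1a1, the main chain of type I collagen, had 510.1, 479, 246 and 349.97 CPM on day 14 and 221, 221, 335 and 214 CPM on day 2 (log2 change 0.68 ± 0.31, adjusted p 0.394). For Col3a1 the groups did not overlap, whereas for Col1a1 day 2 replicate 3 lay among the day 14 libraries. Col14a1, a collagen that sits on the surface of fibrils, had 139.6, 175, 45.4 and 49.4 CPM on day 14 and 28.1, 29.6, 43.3 and 35 CPM on day 2, and its log2 change of 1.58 ± 0.43 was called by DESeq2 (adjusted p 0.0239). Day 14 replicates 1 and 2 were well above the rest, and replicates 3 and 4 only just cleared day 2. Col5a2, a fibril-nucleating chain, had a log2 change of 0.49 ± 0.15 and did not overlap.

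Type VI collagen, the beaded filament around adipocytes, held members of both signs. Col6a1 had 816, 663, 704 and 597 CPM on day 14 and 426, 351, 351 and 546 CPM on day 2 (log2 change 0.73 ± 0.26, adjusted p 0.285), with no overlap. Col6a3, the chain that yields endotrophin, had 313, 267, 254 and 254 CPM on day 14 and 261, 157, 261 and 369 CPM on day 2 (log2 change 0.056 ± 0.31), and its sign turned when single libraries were left out. Col6a5, a chain with restricted expression, had 47.9, 78.8, 58.4 and 85.5 CPM on day 14 and 149, 199, 151 and 103 CPM on day 2, so that all day 14 libraries lay below day 2 (log2 change -1.16 ± 0.63, adjusted p 0.484). Col5a3, a type V chain that is expressed in fat, overlapped fully, with 926, 872, 1406 and 1346 CPM on day 14 and 1501, 755, 1028 and 1585 CPM on day 2.

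In the basement membrane that wraps each adipocyte, 7 of 21 tested genes were higher at an unadjusted p under 0.05 and 0 lower (median log2 change 0.24). Nid1, the nidogen that links laminin to type IV collagen, had 1589, 1602, 1415 and 1249 CPM on day 14 and 1077, 1016, 991 and 1045 CPM on day 2, with no overlap. Its log2 change was 0.50 ± 0.13, at an adjusted p of 0.155 in edgeR and 0.0144 in DESeq2. Col18a1, the source of endostatin, had 361, 306, 285 and 231 CPM on day 14 and 182, 182, 176 and 192 CPM on day 2 (log2 change 0.69 ± 0.22), and here too every day 14 library was higher. The type IV chains that form the sheet itself showed little difference. Col4a1 had 1999.5, 2092, 2353 and 1903 CPM on day 14 and 1967, 1504, 1806 and 1783 CPM on day 2 (log2 change 0.24 ± 0.23). Col4a2 had 1305, 1279.6, 1570.2 and 1244 CPM on day 14 and 1496, 981, 1247 and 1346 CPM on day 2, a log2 change of 0.091 ± 0.23.

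Glycoproteins and elastic fibre genes held the widest differences. Of 32 tested, 17 were higher at an unadjusted p under 0.05 and 1 lower (median log2 change 0.58), and DESeq2 called 5. The count of 17 was 11 without day 14 replicate 1. Thbs1, the thrombospondin that activates latent TGF-beta, had 289.99, 698, 73.6 and 210.04 CPM on day 14 and 26.4, 45.1, 23.3 and 28.1 CPM on day 2 (log2 change 3.35 ± 0.82, adjusted p 0.154 in edgeR and 0.00805 in DESeq2). Fbn1, the fibrillin of elastic microfibrils, had 842, 832, 289 and 296 CPM on day 14 and 179.7, 158, 245 and 219.5 CPM on day 2 (log2 change 1.49 ± 0.43, adjusted p 0.212). Both genes separated the days fully, but their spread within day 14 was wide, with day 14 replicates 1 and 2 far above 3 and 4 for Fbn1 and replicate 2 on top for Thbs1. Fn1, the fibronectin that cells lay down first, had 1427, 1543, 775 and 509.6 CPM on day 14 and 468, 536, 511 and 469 CPM on day 2 (log2 change 1.10 ± 0.34, adjusted p 0.234), and only day 14 replicate 4 fell within the day 2 range. Sparc, a collagen-binding protein secreted by adipocytes, had 5456, 5185, 4817 and 4095 CPM on day 14 and 3767, 3506, 2693 and 3036 CPM on day 2 (log2 change 0.59 ± 0.20, adjusted p 0.261).

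Further glycoproteins called by DESeq2 were Mfap5, a microfibril protein, Tnxb, tenascin-X, Efemp1, a fibulin, and Ccn1, a matricellular target of YAP signalling. Mfap5 had 109, 124, 47.8 and 49.3 CPM on day 14 and 27, 34.1, 26.2 and 31.3 CPM on day 2 (log2 change 1.48 ± 0.36). Tnxb had 487, 521, 246 and 239.9 CPM on day 14 and 193, 197, 199 and 201 CPM on day 2 (log2 change 0.92 ± 0.23). Ccn1 had 45.2, 39.6, 25 and 36.1 CPM on day 14 and 19.4, 14.6, 7.81 and 11 CPM on day 2 (log2 change 1.59 ± 0.39). None of these 3 overlapped between the days, while Efemp1 (log2 change 1.10 ± 0.24) overlapped in day 14 replicate 4. Fbln2, another fibulin, had a log2 change of 0.98 ± 0.28 with no overlap. Spon1, which encodes the adhesion protein F-spondin, ran the other way, with 24.2, 23.8, 18.8 and 20.7 CPM on day 14 and 26.4, 38.6, 44.5 and 30.5 CPM on day 2 (log2 change -0.71 ± 0.24, adjusted p 0.258).

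**Figure D2:**
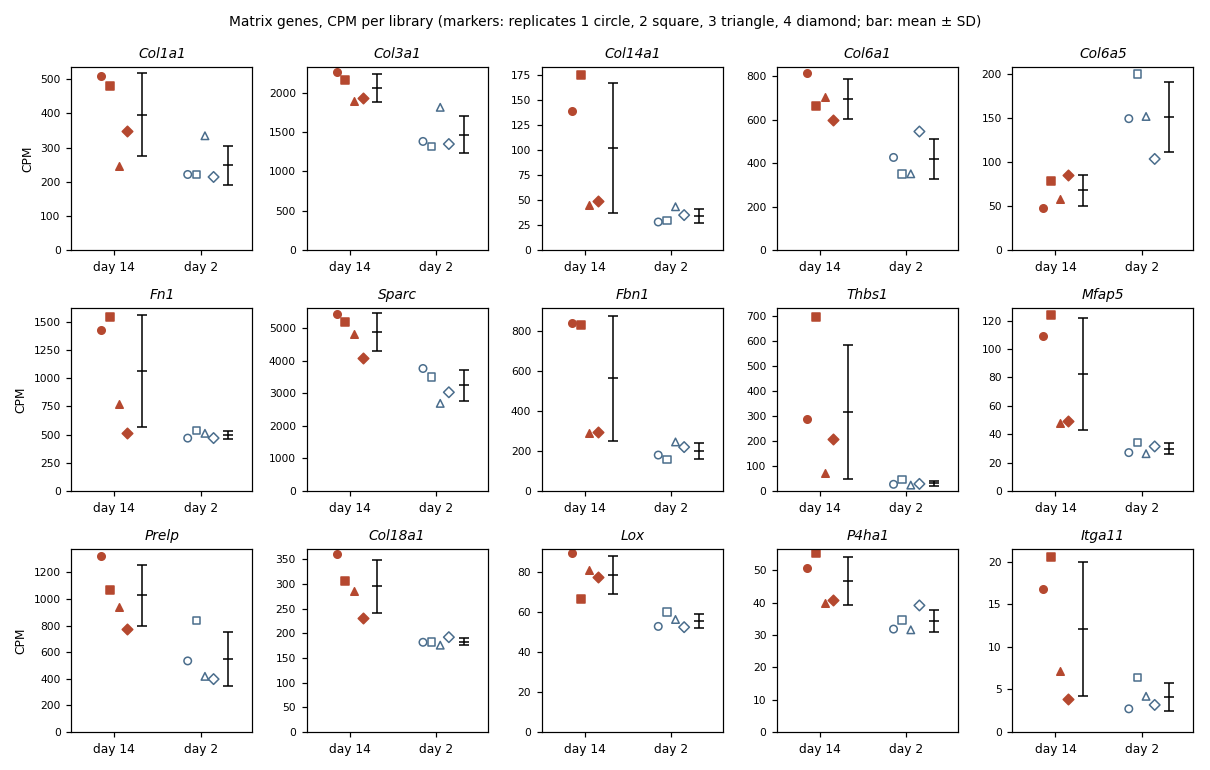
CPM of 15 matrix genes in each library, day 14 (red, filled) left of day 2 (blue, open), with a marker shape for each replicate and a bar for the mean ± SD of 4. The vertical axes start at 0 and differ between genes. Thbs1, Fbn1, Mfap5 and Col14a1 are highest in day 14 replicates 1 and 2, whereas Col6a5 is lower in all 4 day 14 libraries.

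Proteoglycans and the enzymes that finish collagen showed smaller differences. Of 19 proteoglycan genes 5 were higher and 0 lower at an unadjusted p under 0.05 (median log2 change 0.48, or 0.30 without day 14 replicate 2). Prelp, which anchors basement membrane to connective tissue, had 1325, 1068, 943 and 777 CPM on day 14 and 534, 839, 417 and 397 CPM on day 2 (log2 change 0.91 ± 0.22, adjusted p 0.141 in edgeR and 0.0160 in DESeq2), with day 2 replicate 2 inside the day 14 range. Dcn, the fibril-spacing proteoglycan decorin, overlapped (log2 change 0.15 ± 0.23). Of 22 processing enzymes 5 were higher and 0 lower (median log2 change 0.23). P4ha1, a subunit of the enzyme that hydroxylates prolines in collagen, had 50.8, 55.3, 39.9 and 40.9 CPM on day 14 and 31.8, 34.7, 31.6 and 39.2 CPM on day 2 (log2 change 0.45 ± 0.11, adjusted p 0.0484 in DESeq2). Lox, the copper enzyme that crosslinks collagen and elastin, had 89.7, 66.5, 81.2 and 77.6 CPM on day 14 and 52.9, 60.2, 56.3 and 52.5 CPM on day 2 (log2 change 0.50 ± 0.23, adjusted p 0.395). Both enzymes were higher in every day 14 library. The collagen chaperone gene Serpinh1 and the transglutaminase gene Tgm2 had log2 changes of 0.18 ± 0.29 and -0.032 ± 0.077 with overlapping libraries.

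Of 27 tested proteases and inhibitors 5 were higher and 1 lower at an unadjusted p under 0.05 (median log2 change 0.17, or 0.053 and 0.094 without day 14 replicates 1 and 2 and 0.29, 0.30 and 0.28 without day 14 replicates 3 and 4 and day 2 replicate 4). Day 14 replicates 1 and 2 were high in this list, whose mean lay at 0.44, 0.52, -0.058 and 0.08 on day 14 and -0.20, 0.071, 0.041 and 0.091 on day 2. Ctsl, a lysosomal protease that also degrades fibronectin, had 426, 497, 431 and 395 CPM on day 14 and 330.2, 362, 319.7 and 314 CPM on day 2 (log2 change 0.40 ± 0.11, adjusted p 0.0477 in DESeq2). The inhibitor gene Timp4 had 311, 369, 187 and 202 CPM on day 14 and 109.5, 194, 101 and 68.5 CPM on day 2 (log2 change 1.17 ± 0.40, adjusted p 0.269), and its sister Timp1 had 5.92, 3.94, 1.25 and 3.11 CPM on day 14 and 1.08, 1.12, 1.21 and 1.52 CPM on day 2 (log2 change 1.55 ± 0.62). Timp1 was high in 3 of 4 day 14 libraries and low in replicate 3. Mmp14, the membrane collagenase that adipose tissue uses to open its matrix, overlapped (log2 change 0.15 ± 0.22), as did Adamts5 (0.38 ± 0.27) and Timp2 (0.34 ± 0.27). Of 21 integrins and matrix receptors 4 were higher and 0 lower (median log2 change 0.25, or 0.38 without day 14 replicate 4). Itga11, the fibroblast receptor for fibrillar collagen, had 16.8, 20.5, 7.18 and 3.89 CPM on day 14 and 2.70, 6.37, 4.17 and 3.16 CPM on day 2 (log2 change 1.49 ± 0.42, adjusted p 0.0497 in DESeq2), and day 14 replicate 4 was within day 2. The abundant receptor genes Itgb1 and Itga7 had log2 changes of 0.21 ± 0.13 and -0.19 ± 0.14.

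Metabolic genes were on the opposite side. Of 412 genes in 16 metabolic lists 396 were tested and 293 had a negative log2 change, against 48.2% of all tested genes. An unadjusted p under 0.05 was reached by 120 lower on day 14 (30.3%, against 5.26% of all genes) and by 22 higher (5.56%, against 6.85%), and the median log2 change was -0.21. DESeq2 called 10 lower and 5 higher. Mitochondrial genes made up much of this. The oxidative phosphorylation list held 69 of the negative and 55 of the lower genes, and the citrate cycle list 28 and 20. Medians of the lipolysis, branched-chain amino acid, insulin signalling, secreted protein, adipogenic factor and retinoid lists lay between -0.068 and 0.061. The median of the adipose expansion markers was 0.28. The count of lower genes was 54 without day 14 replicate 1, 66 without replicate 2 and 60 without day 2 replicate 3.

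**Figure D3:**
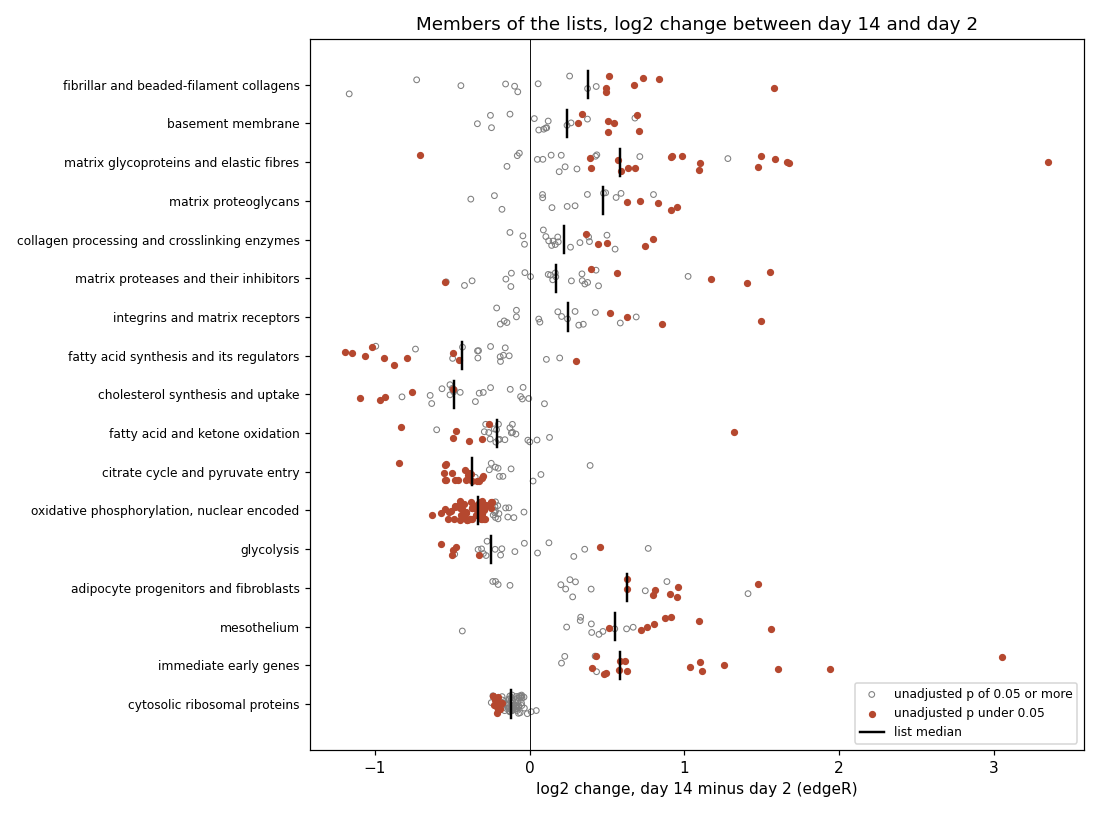
Log2 change of each tested member of 17 lists, day 14 minus day 2, with members at an unadjusted p under 0.05 in edgeR filled and the list median as a black bar. Vertical scatter within a row has no meaning. All 69 oxidative phosphorylation genes lie left of 0 and all 19 immediate early genes right of it, while Thbs1 at 3.35 is the member farthest to the right.

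Fatty acid synthesis genes, which turn citrate into long-chain fatty acids, had a negative log2 change in 22 of 25 tested members, with 9 lower and 1 higher at an unadjusted p under 0.05 (median log2 change -0.43), and DESeq2 called 0. The list mean lay at -0.75, -0.67, -0.13 and -0.29 in day 14 replicates 1 to 4, against 0.22, -0.49, 0.18 and 0.089 in the day 2 replicates, so day 14 replicates 1 and 2 were lowest. Fasn, the fatty acid synthase, had 2341, 2097, 7457 and 3421 CPM on day 14 and 10673, 2332, 9905 and 11042 CPM on day 2 (log2 change -1.15 ± 0.47, adjusted p 0.343). Acaca, which makes malonyl-CoA, had 381, 523, 867 and 742 CPM on day 14 and 1342, 514, 1653 and 1311 CPM on day 2 (log2 change -0.94 ± 0.36, adjusted p 0.305). Me1, the malic enzyme that supplies NADPH, had 351, 382, 903 and 710.04 CPM on day 14 and 1568, 464, 1366 and 1949 CPM on day 2 (log2 change -1.19 ± 0.39, adjusted p 0.254). In each of these genes day 2 replicate 2 was as low as the day 14 libraries, and the other 3 day 2 libraries were above all of day 14. The log2 change of Fasn was -1.46 without day 2 replicate 2 and -1.70 without day 14 replicate 3, its highest day 14 library.

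Srebf1, the transcription factor that drives this programme, separated the days in every library, with 462, 469.9, 573 and 579 CPM on day 14 and 775, 610.01, 759 and 718 CPM on day 2 (log2 change -0.46 ± 0.17, adjusted p 0.305). Acly, the citrate lyase, had 354, 388, 792 and 505 CPM on day 14 and 829.8, 296, 1191 and 1079 CPM on day 2 (log2 change -0.74 ± 0.45, adjusted p 0.541). Elovl6, which extends palmitate, had 33.5, 30.7, 71.7 and 41.5 CPM on day 14 and 80.4, 30.4, 91.3 and 105 CPM on day 2 (log2 change -0.79 ± 0.37, adjusted p 0.405). Both repeated the low value of day 2 replicate 2. Scd1, the desaturase and the most abundant transcript of these libraries, overlapped, with 38598, 44927, 53762 and 73388 CPM on day 14 and 73310.2, 56166, 67693 and 42748 CPM on day 2 (log2 change -0.19 ± 0.26).

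Cholesterol synthesis and uptake genes, the classic SREBP2 targets, were negative for 24 of 25 members, with 5 lower and 0 higher at an unadjusted p under 0.05 (median log2 change -0.49, or -0.75 without day 2 replicate 2 and -0.25 without day 2 replicate 4). Insig1, which holds SREBP in the endoplasmic reticulum and is itself an SREBP target, had 175, 177, 409 and 238 CPM on day 14 and 568, 128, 660.1 and 781 CPM on day 2 (log2 change -1.10 ± 0.47, adjusted p 0.364). Nsdhl, a demethylating enzyme late in the pathway, had 35, 36.1, 81.5 and 62.8 CPM on day 14 and 134, 43.1, 99.6 and 147 CPM on day 2 (log2 change -0.97 ± 0.36, adjusted p 0.304). Again day 2 replicate 2 was among or below the day 14 libraries for both genes and the other 3 day 2 libraries were above them, and no member of the list separated the days fully. Fdps, which makes farnesyl diphosphate, had a log2 change of -0.93 ± 0.40, and Hmgcs1, the first committed enzyme, had -0.51 ± 0.33.

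The promoters of these genes are shown because the members lay on 1 side together. Promoters were taken from RefSeq (GRCm38.p6) for the 17 of 25 cholesterol list genes that the table holds, and the 250 bases before the start were searched on both strands for CCAAT, the letters bound by the factor NF-Y, a partner of SREBP. They occurred in 15 of these 17 promoters (88.2%), in 11 of 22 fatty acid synthesis promoters (50%) and in 34.5% of all 27025 promoters. Below, the 150 bases before the start are given in lower case with CCAAT or its complement ATTGG in capitals, and 2 of the 3 matches in Fasn overlap.
Hmgcs1, chr13:119690201-119690350, plus strand: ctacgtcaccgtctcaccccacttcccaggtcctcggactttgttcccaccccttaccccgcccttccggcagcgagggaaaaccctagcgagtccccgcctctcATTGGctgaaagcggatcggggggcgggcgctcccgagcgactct
Nsdhl, chrX:72918371-72918520, plus strand: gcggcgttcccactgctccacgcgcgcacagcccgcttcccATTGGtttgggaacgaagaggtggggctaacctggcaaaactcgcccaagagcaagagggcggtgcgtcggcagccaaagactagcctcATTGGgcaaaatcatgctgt
Fasn, chr11:120824548-120824697, minus strand: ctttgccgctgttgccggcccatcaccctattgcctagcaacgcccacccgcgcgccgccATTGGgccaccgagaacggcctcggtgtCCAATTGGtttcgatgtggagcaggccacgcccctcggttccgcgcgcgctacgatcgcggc
The bases just after the start were found at the first base of a reference transcript for Fasn. They were not found in one for Hmgcs1 or Nsdhl, so those starts are less certain. A match is a description of the letters and not evidence of binding.

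Genes for fatty acid uptake and triglyceride synthesis were mixed, with 6 of 29 lower and 2 higher at an unadjusted p under 0.05 (median log2 change -0.097). Agpat2, the acyltransferase lost in a form of lipodystrophy, had 614, 509, 1171 and 962 CPM on day 14 and 2089, 790.4, 1684 and 2259.8 CPM on day 2 (log2 change -1.07 ± 0.36, adjusted p 0.258). Gpd1, which makes the glycerol backbone, had 752, 775, 1386 and 998 CPM on day 14 and 2086, 996, 1698 and 2237 CPM on day 2 (log2 change -0.84 ± 0.30, adjusted p 0.290). Day 2 replicate 2 lay within day 14 for both. Dgat1, which adds the last acyl chain, was below day 2 in every day 14 library, though day 14 replicate 4 and day 2 replicate 2 nearly met, with 195, 221, 275 and 299.9 CPM on day 14 and 322, 300.1, 349 and 351 CPM on day 2 (log2 change -0.42 ± 0.17, adjusted p 0.346). Acsl1, the main acyl-CoA synthetase of fat, had a log2 change of -0.73 ± 0.25.

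Angptl4, a fasting-induced inhibitor of lipoprotein lipase, was on the other side, with 599, 674, 516 and 519 CPM on day 14 and 287, 476, 259 and 290.04 CPM on day 2 (log2 change 0.81 ± 0.24, adjusted p 0.217). The groups did not overlap, and day 2 replicate 2 was the closest. Acsl5, an acyl-CoA synthetase gene, was the other higher member (log2 change 0.31 ± 0.10, adjusted p 0.254) and overlapped. Angptl8, a feeding-induced inhibitor of the lipase that Angptl4 acts on, had 8.85, 5.95, 50.3 and 11.2 CPM on day 14 and 113, 6.06, 55.3 and 243 CPM on day 2 (log2 change -2.48 ± 0.86, adjusted p 0.273). Angptl8 varied widely within both days and overlapped. The lipase gene Lpl itself had 8725, 8748, 16850.3 and 14224 CPM on day 14 and 17331, 12483, 13901 and 17815 CPM on day 2 (log2 change -0.34 ± 0.21), with only day 14 replicates 1 and 2 below every day 2 library. The fatty acid carriers Cd36 and Fabp4 had log2 changes of -0.0036 ± 0.15, of the other sign without scaling factors, and 0.043 ± 0.21.

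Lipolysis and lipid droplet genes did not lie to 1 side, with 2 of 22 higher and 1 lower at an unadjusted p under 0.05 (median log2 change 0.039). Pnpla2, the lipase that takes the first fatty acid off triglyceride, had 2102, 2830.2, 2222 and 2600.4 CPM on day 14 and 1508, 2876, 1872 and 991 CPM on day 2 (log2 change 0.43 ± 0.28, adjusted p 0.575). Lipe, the hormone-sensitive lipase, had a log2 change of 0.038 ± 0.16, and the droplet coat genes Plin4 and Cidec had 0.14 ± 0.14 and 0.18 ± 0.19. For all 4 genes the libraries of the days overlapped. Pck1, which makes glycerol phosphate from pyruvate in fat, had 2026, 2335, 2004 and 1925 CPM on day 14 and 1265, 2303, 1798 and 918 CPM on day 2 (log2 change 0.40 ± 0.34).

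Mitochondrial genes gave the most uniform pattern. All 69 nuclear-encoded oxidative phosphorylation genes had a negative log2 change, from -0.63 to -0.036, with a median of -0.34. Of these, 55 were lower at an unadjusted p under 0.05 (5.26% over all genes) and 13 lay below day 2 without overlap (1.95% over all genes). DESeq2 called 7 lower (0.236% over all genes). The count of 55 was 27 without day 14 replicate 1, 35 without replicate 2 and 27 without day 2 replicate 3. Relative to the day 2 mean the list lay at -0.60, -0.46, -0.094 and -0.21 in day 14 replicates 1 to 4, against -0.0062, -0.16, 0.20 and -0.033 in the day 2 replicates.

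Ndufs8, an iron-sulphur subunit of complex I, had 45.3, 46.8, 57.2 and 51.9 CPM on day 14 and 72.3, 60.5, 84.8 and 63.8 CPM on day 2 (log2 change -0.49 ± 0.11, adjusted p 0.128 in edgeR and 0.00805 in DESeq2). Cox5b, a subunit of cytochrome c oxidase, had 133, 139, 156 and 150.5 CPM on day 14 and 201, 182, 242 and 205 CPM on day 2 (log2 change -0.52 ± 0.12, adjusted p 0.138 in edgeR and 0.00805 in DESeq2). In both genes all day 14 libraries, replicates 3 and 4 included, were below all day 2 libraries. Atp5g3, which encodes the rotor ring of ATP synthase, had 216, 235, 376 and 336 CPM on day 14 and 483, 321, 516 and 479 CPM on day 2 (log2 change -0.63 ± 0.18, adjusted p 0.0477 in DESeq2). Ndufb5, another complex I subunit, had a log2 change of -0.45 ± 0.12, and the catalytic ATP synthase genes Atp5b and Atp5a1 had -0.40 ± 0.16 and -0.31 ± 0.13. The complex I gene Ndufs6 and the ATP synthase gene Atp5h did not overlap, at log2 changes of -0.32 ± 0.11 and -0.30 ± 0.11. The 15 mitochondrially encoded transcripts had a median log2 change of -0.23 (-0.095 without day 14 replicate 1, -0.39 without day 14 replicate 4 and -0.13 without day 2 replicate 3), with 1 lower and 0 higher at an unadjusted p under 0.05.

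Promoters of the oxidative phosphorylation genes are shown for the letters of NRF1, a nuclear regulator of respiratory chain genes. The letters GCGCA and GCGC with any 1 base between them, searched on both strands of the 250 bases before the start, occurred in 10 of the 57 promoters of the list that RefSeq (GRCm38.p6) gave (17.5%) and in 3.86% of all 27025 promoters. The 150 bases before the start of 2 members with a match and no overlap between the days follow, with the match in capitals.
Ndufs6, chr13:73328483-73328632, minus strand: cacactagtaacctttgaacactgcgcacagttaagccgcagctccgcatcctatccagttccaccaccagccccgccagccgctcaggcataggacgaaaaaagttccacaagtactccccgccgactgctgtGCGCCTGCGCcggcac
Atp5h, chr11:115419920-115420069, minus strand: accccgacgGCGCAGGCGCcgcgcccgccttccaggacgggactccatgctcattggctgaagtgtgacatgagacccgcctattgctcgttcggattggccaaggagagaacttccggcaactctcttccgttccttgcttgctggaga
The bases just after the start lay 60 bases into a reference transcript for Ndufs6 and were not found in one for Atp5h, so both starts are less certain. The matches describe these windows only.

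Genes of the citrate cycle and pyruvate entry had a negative log2 change in 28 of 31 members, with 20 lower and 0 higher at an unadjusted p under 0.05 (median log2 change -0.37). The list mean was lowest in day 14 replicates 1 and 2, at -0.62, -0.49, -0.087 and -0.15 in day 14 replicates 1 to 4, against 0.022, -0.24, 0.18 and 0.036 on day 2. Cs, the citrate synthase, had 449.7, 488, 733 and 695 CPM on day 14 and 941, 644, 949 and 914 CPM on day 2 (log2 change -0.54 ± 0.17, adjusted p 0.237). Mdh2, the mitochondrial malate dehydrogenase, had 250.4, 286, 388 and 364 CPM on day 14 and 479, 375, 524 and 497 CPM on day 2 (log2 change -0.54 ± 0.15, adjusted p 0.0288 in DESeq2). Mpc2, a subunit of the carrier that brings pyruvate into mitochondria, had 92.2, 105, 212 and 167 CPM on day 14 and 299.99, 154, 297 and 279.9 CPM on day 2 (log2 change -0.84 ± 0.24, adjusted p 0.0484 in DESeq2). Day 2 replicate 2 was the lowest day 2 library in all 3 and fell among the day 14 libraries. Pcx, the pyruvate carboxylase that refills the cycle for lipid synthesis, had a log2 change of -0.55 ± 0.20 (adjusted p 0.302).

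Fatty acid and ketone oxidation genes were lower for 6 of 28 members and higher for 1 at an unadjusted p under 0.05 (median log2 change -0.21, or -0.12 without day 14 replicate 1). Cpt1a, the gate of fatty acids into mitochondria, had 143, 135, 156 and 160.1 CPM on day 14 and 237, 141, 175 and 286 CPM on day 2 (log2 change -0.49 ± 0.16, adjusted p 0.248), with day 2 replicate 2 inside day 14. The abundant oxidation gene Acadm, a medium-chain acyl-CoA dehydrogenase gene, had a log2 change of -0.11 ± 0.15.

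Glycolysis had 5 of 22 members lower and 1 higher at an unadjusted p under 0.05 (median log2 change -0.25). Gpi1, the isomerase of the second step, had 198, 220.00, 208 and 223 CPM on day 14 and 258, 233, 266 and 306 CPM on day 2 (log2 change -0.33 ± 0.09, adjusted p 0.181 in edgeR and 0.0277 in DESeq2), and every day 14 library was lower. Aldoa, the aldolase, had a log2 change of -0.49 ± 0.20, and Pfkfb3, which makes the allosteric activator of phosphofructokinase, -0.18 ± 0.19. Slc16a1, a lactate carrier, was the higher one, with 60.4, 82, 106 and 90.02 CPM on day 14 and 58.8, 54.5, 62.6 and 70.03 CPM on day 2 (log2 change 0.45 ± 0.14, adjusted p 0.234). In the pentose phosphate list 3 of 11 were lower and 1 higher. Pgd, the cytosolic NADPH source, had a log2 change of -0.59 ± 0.24, while H6pd, its counterpart in the endoplasmic reticulum, had 742, 992, 681 and 801 CPM on day 14 and 428, 852, 470.03 and 339 CPM on day 2 (log2 change 0.62 ± 0.24, adjusted p 0.310). Day 2 replicate 2 was the exception for H6pd, within the day 14 range.

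Branched-chain amino acid catabolism had 1 of 23 members higher and 1 lower at an unadjusted p under 0.05 (median log2 change -0.016), with log2 changes of 0.19 ± 0.25 for Aldh6a1 and 0.13 ± 0.21 for Ivd. Insulin signalling and glucose transport had 1 of 28 higher and 2 lower (median log2 change -0.068). Slc2a4, the insulin-regulated glucose transporter GLUT4, had 179, 181, 239 and 207 CPM on day 14 and 252, 254, 241 and 199 CPM on day 2 (log2 change -0.23 ± 0.17). Pik3cb, a catalytic PI3-kinase subunit, was below day 2 in every day 14 library, with 79.1, 65.3, 104 and 103 CPM on day 14 and 141, 108, 141 and 162 CPM on day 2 (log2 change -0.66 ± 0.22, adjusted p 0.254). Trarg1 and Sort1, both of the GLUT4 storage vesicle, had log2 changes of -0.032 ± 0.12 and 0.095 ± 0.14. Retinoid and steroid metabolism had 3 of 16 higher and 1 lower (median log2 change 0.037). The lower one was Hsd11b1, which regenerates active glucocorticoid, with 129, 121, 137 and 167 CPM on day 14 and 237, 242, 221 and 199 CPM on day 2 (log2 change -0.70 ± 0.21, adjusted p 0.217) and no overlap. Cyp2e1 and Rbp4 had log2 changes of -0.21 ± 0.69 and 0.22 ± 0.21.

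**Figure D4:**
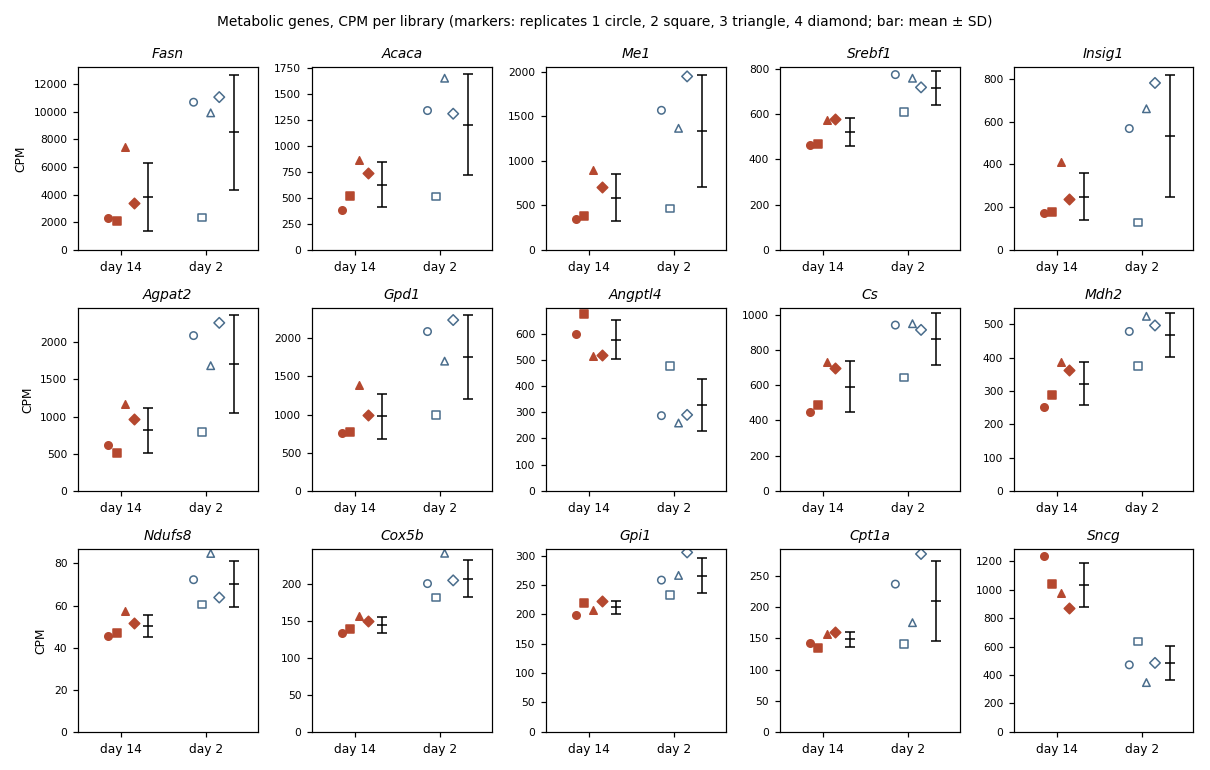
CPM of 15 metabolic genes in each library, day 14 (red, filled) left of day 2 (blue, open), with a marker shape for each replicate and a bar for the mean ± SD of 4. The vertical axes start at 0 and differ between genes. The open square, day 2 replicate 2, lies among or below the day 14 libraries for Fasn, Acaca, Me1, Insig1 and Agpat2, whereas Srebf1, Ndufs8, Cox5b, Gpi1, Angptl4 and Sncg separate the days in all 8 libraries.

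Adipose expansion markers, genes known to follow the growth of adipocytes, had 5 of 19 members higher and 0 lower at an unadjusted p under 0.05 (median log2 change 0.28, or 0.18 without day 2 replicate 2). The list mean was above the day 2 mean in all 4 day 14 libraries, at 0.36, 0.22, 0.50 and 0.40, against 0.11, 0.028, -0.23 and 0.091 on day 2, so day 14 replicates 3 and 4 were as high as 1 and 2. Sncg, given above, and Bmp3, an inhibitory BMP ligand, were called by DESeq2. Bmp3 had 28.5, 23.5, 25.3 and 8.86 CPM on day 14 and 7.01, 6.37, 4.77 and 7.01 CPM on day 2 (log2 change 1.85 ± 0.44, adjusted p 0.00805 in DESeq2). Nnat, a proteolipid gene that is imprinted, had 2447, 2375, 1165 and 1285 CPM on day 14 and 144, 1661, 204 and 152 CPM on day 2 (log2 change 1.74 ± 0.82, adjusted p 0.409), and day 2 replicate 2 alone reached the day 14 level. Mest, a marker of adipocyte growth on a high-fat diet, overlapped, with 324, 289.6, 461 and 468 CPM on day 14 and 631, 300.2, 398 and 457 CPM on day 2 (log2 change -0.21 ± 0.36). Cav1 and Ehd2 of the caveolae, the membrane pits of adipocytes, had log2 changes of -0.0041 ± 0.12 and 0.011 ± 0.12, both of a sign that turned with the scaling.

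Secreted adipocyte proteins had 4 of 22 members higher and 2 lower at an unadjusted p under 0.05 (median log2 change 0.061). Lep had 1939, 1463, 2254 and 1502 CPM on day 14 and 1589, 1002, 1019 and 2118 CPM on day 2 (log2 change 0.32 ± 0.31, adjusted p 0.742). Adipoq had 3768, 4419, 3338 and 3488 CPM on day 14 and 2071, 4114, 2352 and 1928 CPM on day 2 (log2 change 0.52 ± 0.31, adjusted p 0.534). Both hormones overlapped between the days. Itih5, a hyaluronan-binding protein secreted by fat, did not, with 1094, 1171, 761 and 845 CPM on day 14 and 588, 644, 547 and 606 CPM on day 2 (log2 change 0.70 ± 0.17, adjusted p 0.0232 in DESeq2). Sfrp5, a Wnt-binding adipokine, had 82.6, 52.9, 22.2 and 19 CPM on day 14 and 6.47, 29.7, 1.06 and 12.3 CPM on day 2 (log2 change 1.77 ± 0.72), highest in day 14 replicates 1 and 2. Cfd, the complement factor adipsin, and Apoe had log2 changes of -0.41 ± 0.58 and -0.21 ± 0.21.

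Adipogenic and lipid-sensing transcription factors had 1 of 22 members higher and 4 lower at an unadjusted p under 0.05 (median log2 change 0.056). Pparg, the master regulator of adipocytes, and Cebpa, its partner, had log2 changes of -0.20 ± 0.17 and -0.14 ± 0.16. Rxra, the obligate partner of PPAR-gamma, was lower in every day 14 library (log2 change -0.24 ± 0.11, adjusted p 0.379). Klf4, an early adipogenic factor that is also an immediate early gene, had 88.5, 77.8, 58.8 and 53.9 CPM on day 14 and 38.3, 43.5, 37.7 and 42 CPM on day 2 (log2 change 0.79 ± 0.20, adjusted p 0.0278 in DESeq2). Of 12 tested thermogenic genes 9 had a negative log2 change (median -0.42, or -0.21 without day 2 replicate 3). At an unadjusted p under 0.05 there were 0 higher and 2 lower, Cox8b and Ppargc1a. The uncoupling protein genes Ucp2 and Ucp3, among the 3 positive members, had log2 changes of 0.41 ± 0.21 and 0.17 ± 0.23. Ucp1 was among 5 members that were not tested.

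Markers of the stromal cells that make matrix lay on the same side. Of 21 progenitor and fibroblast markers 8 were higher and 0 lower at an unadjusted p under 0.05 (median log2 change 0.63, or 0.26 without day 14 replicate 2), and the list mean lay at 0.80, 0.90, 0.18 and 0.0046 in day 14 replicates 1 to 4, against -0.14, 0.20, -0.059 and 0.0016 on day 2. Dpp4 and Cd55, markers of an early fibroblast-like progenitor, had 53.9, 47.5, 22 and 24.7 and 85.6, 86.6, 42 and 41.4 CPM on day 14, against 17.8, 20.5, 19.7 and 18.9 and 35.6, 31.3, 29.7 and 37.4 CPM on day 2. Of 19 markers of mesothelium, the sheet that covers the fat pad, 8 were higher and 0 lower (median log2 change 0.55), with the list mean at 1.04, 0.84, 0.10 and 0.15 on day 14 and -0.03, 0.076, 0.19 and -0.23 on day 2. Msln, its defining gene, had 69.8, 63.8, 20.9 and 28.1 CPM on day 14 and 17.8, 13.6, 17 and 15.5 CPM on day 2 (log2 change 1.56 ± 0.41, adjusted p 0.0239 in DESeq2). Summed CPM of the mesothelial markers ranged from 926 to 1634 on day 14 and from 687 to 916 on day 2, and of the progenitor markers from 2337 to 2851 on day 14 and from 2049 to 2771 on day 2. The same day 14 replicates 1 and 2 were high in these lists as in the matrix lists, and the part of either cell type in the matrix values was not tested.

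Immediate early genes, which respond within minutes to stress and also to tissue handling, were positive for 19 of 19 members, with 15 higher and 0 lower at an unadjusted p under 0.05 (median log2 change 0.58), or 9 higher without day 14 replicate 1. Jun had 107, 89.7, 92.5 and 67.9 CPM on day 14 and 46.4, 50.4, 32.9 and 38.6 CPM on day 2 (log2 change 1.10 ± 0.24, adjusted p 0.00805 in DESeq2). Fosb had 30.5, 26.9, 1.82 and 4.20 CPM on day 14 and 1.62, 2.14, 1.44 and 2.57 CPM on day 2 (log2 change 3.05 ± 0.79, adjusted p 0.0236 in DESeq2). Jun separated the days fully, whereas Fosb was high in day 14 replicates 1 and 2 alone. The list mean lay at 1.16, 1.05, 0.18 and 0.71 in day 14 replicates 1 to 4 and at -0.16, 0.14, -0.17 and 0.20 in the day 2 replicates, and its part in the other values was not tested. Thbs1, Ccn1 and Klf4 of the lists above are known to respond to such stimuli too.

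Macrophage markers had 2 of 28 higher and 0 lower at an unadjusted p under 0.05 (median log2 change 0.21, or 0.086 and 0.10 without day 14 replicates 1 and 2), with Adgre1, the F4/80 gene, at 48.3, 45.6, 38.8 and 33.4 CPM on day 14 and 28.1, 41.3, 39 and 38.2 CPM on day 2. Their list mean was also highest in day 14 replicates 1 and 2, at 0.36, 0.44, -0.064 and -0.075 on day 14 and -0.33, 0.22, 0.088 and 0.02 on day 2. Their summed CPM, which the abundant markers dominate, was instead lowest in those 2 libraries. It stood at 11258.7, 11384.2, 18798.4 and 15818.5 on day 14 and ranged from 14499.3 to 19484.9 on day 2. Cytokines and chemokines had 5 of 21 higher and 1 lower. The neutrophil attractant gene Cxcl1, with 167 reads in the day 14 libraries and 13 in the day 2 libraries, had 4.92, 1.75, 0.456 and 1.09 CPM on day 14 and 1.08, 0.204, 0.152 and 0.351 CPM on day 2 (log2 change 3.05 ± 0.68, adjusted p 0.129 in edgeR and 0.0190 in DESeq2), and it overlapped. The monocyte attractant gene Ccl2 had 20.5, 10.9, 6.04 and 19.9 CPM on day 14 and 4.32, 2.09, 3.94 and 4.68 CPM on day 2 (log2 change 2.01 ± 0.69, adjusted p 0.269). T and NK cell, B cell, blood and cell cycle markers had 0 members on either side, of 22, 10, 7 and 44 tested, and DESeq2 called 0 of them. Jchain, a plasma cell gene, stood at 32.9, 7.89, 1.71 and 2.80 CPM on day 14 and 3.24, 5.40, 5.53 and 4.68 CPM on day 2, high in day 14 replicate 1 alone. Endothelial markers had 1 of 20 higher and 0 lower, and smooth muscle and pericyte markers 2 of 18 higher and 2 lower. Synpo2, an actin-bundling gene of that list, had 286, 320.5, 194 and 150.2 CPM on day 14 and 73.9, 136, 45.2 and 85.9 CPM on day 2 (log2 change 1.47 ± 0.31, adjusted p 0.00401 in DESeq2). Acta1, the skeletal muscle actin, had 9.77, 35.9, 35.9 and 26.1 CPM on day 14 and 3.78, 4.43, 2.65 and 6.78 CPM on day 2 (log2 change 2.63 ± 0.70, adjusted p 0.0171 in DESeq2). Of 5 tested skeletal muscle markers, Acta1 included, 3 were positive and 2 negative. Their list mean ranged from 0.45 to 0.89 on day 14 and from -0.17 to 0.29 on day 2. Another 11 were not tested, among them Ckm and Myh4, the 2 members with 0 reads in all 8 libraries. The source of these reads was not tested. Of 6 tested epididymis markers 1 was higher and 0 lower, and their summed CPM ranged from 4.45 to 20.2 on day 14 and from 6.14 to 13.5 on day 2. Their sum was 385 CPM in day 0 replicate 4, against 14.8, 30.1 and 24.9 in day 0 replicates 1 to 3. That library stayed in the chow means and in the main fit. Lysosomal genes had 8 of 20 higher and 1 lower (median log2 change 0.15, or 0.089 without day 14 replicate 2). Cytosolic ribosomal protein genes were negative for 72 of 74, with 13 lower and 0 higher at a median log2 change of -0.12, or -0.073 without day 14 replicate 4. Endoplasmic reticulum chaperones had 6 of 21 higher and 1 lower, oxidative and heat stress genes 5 of 21 higher and 1 lower, the TGF-beta and activin pathway 2 of 21 higher and 0 lower, and clock genes 0 of 18 on either side.

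Seen beside the other days, the matrix and synthesis lists did not run in 1 direction over the course. The mean of the matrix glycoprotein list, relative to day 2, was 0.43, 0.58, 0.54 and 0.60 on days 0 (chow), 4, 6 and 14, so day 2 was the lowest of the 5 days. The fibrillar collagen list lay at -0.067, 0.62, 0.38 and 0.21 on days 0, 4, 6 and 14. Cholesterol genes lay at -0.75, 0.59, -0.16 and -0.39 on those days, with the top on day 4. Oxidative phosphorylation genes were highest on day 2, with -0.31, -0.17, -0.14 and -0.34 on days 0, 4, 6 and 14, and chow lay close to day 14. Adipose expansion markers lay at -0.37, 0.22, 0.31 and 0.37. The mesothelial list lay at 1.22, -0.38, 0.46 and 0.53 on days 0, 4, 6 and 14. Its mean was highest on chow and lowest on day 4, unlike the matrix glycoprotein and fibrillar collagen lists. The means hide a spread between libraries. On day 4 the fibrillar collagen list lay at 0.09 in replicate 1, against 1.08, 0.78 and 0.51 in replicates 2 to 4. The matrix glycoprotein list lay at -0.13 there, against 0.97, 1.00 and 0.46. On day 6 replicate 4 was the highest library in both lists, at 0.75 and 0.99. These levels are descriptions and were not tested.

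Single genes had courses of their own. Fasn averaged 9469 ± 4022, 8488 ± 4131, 9934 ± 1689, 6652 ± 3546 and 3829 ± 2486 CPM on days 0, 2, 4, 6 and 14 (mean ± SD of 4 libraries). Insig1 averaged 123 ± 59.7, 534 ± 285, 886 ± 272, 376 ± 183 and 249.9 ± 110.03 CPM on days 0, 2, 4, 6 and 14. Thus Fasn had its lowest mean on day 14, while Insig1 had its lowest on chow. Sncg averaged 665 ± 191, 485 ± 119, 581 ± 95.9, 905 ± 189 and 1031 ± 155 CPM on days 0, 2, 4, 6 and 14. Thbs1 averaged 298 ± 305, 30.7 ± 9.79, 95.7 ± 54.4, 117 ± 91.2 and 318 ± 269 CPM on days 0, 2, 4, 6 and 14, with an SD near the mean on both chow and day 14. Col6a5 averaged 169 ± 88.4, 151 ± 39.3, 60.3 ± 47.7, 82.1 ± 86.7 and 67.6 ± 17.5 CPM on days 0, 2, 4, 6 and 14.

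**Figure D5:**
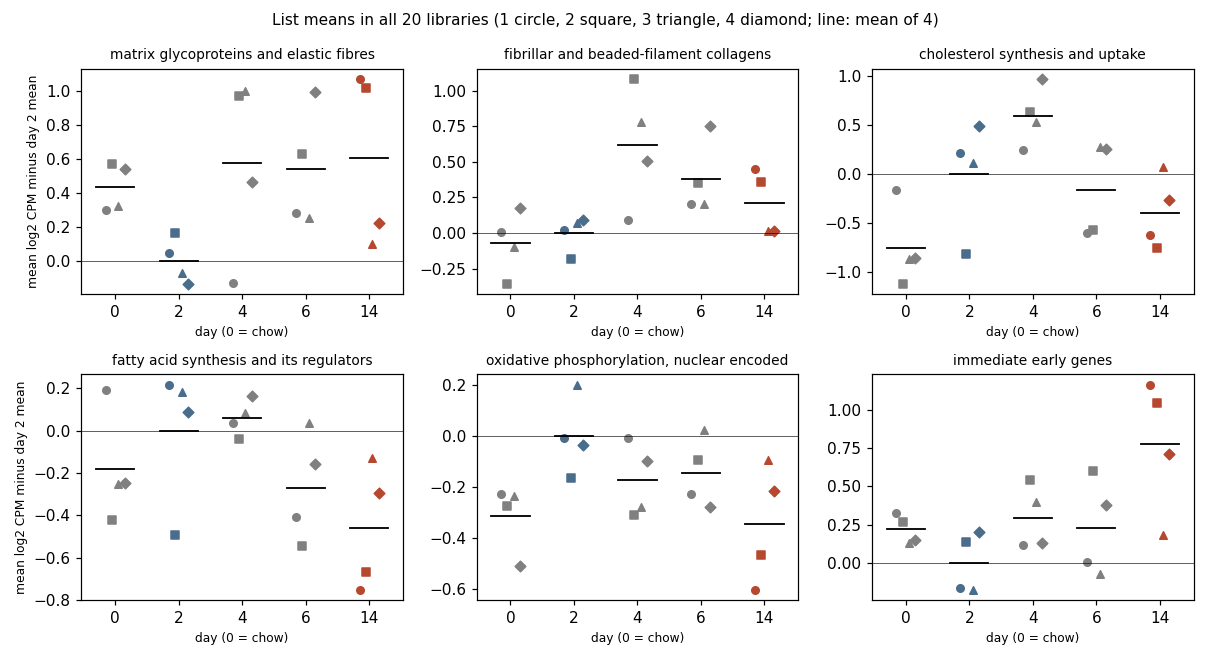
Mean log2 CPM of 6 lists in all 20 libraries, relative to the mean of the 4 day 2 libraries, by day of high-fat feeding (0 is chow), with a marker shape for each replicate and a line at the mean of 4. Day 2 is blue and day 14 red. Matrix glycoproteins are at their lowest and oxidative phosphorylation genes at their highest on day 2, and immediate early genes reach their highest mean, 0.77, on day 14.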

How the data were processed

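RNA of whole epididymal fat was isolated with a column kit and turned into libraries with Illumina's TruSeq RNA kit, per the labels. The deposited values are read counts per Ensembl gene (39179 IDs), not normalized, with each library in its own column. Tools listed in the submitters' processing notes, without roles, were STAR, CASAVA, featureCounts, R (version 3.0) and limma. The genome build, annotation and strand setting are not given in the sources used here, so reads of overlapping or antisense genes and of near-identical copies cannot be told apart.

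In edgeR, filterByExpr (at least 10 counts in enough libraries and 15 in all) kept 15254 genes, of which 141 had no symbol. Symbols were matched by Ensembl ID in a reference table (37607 IDs). CPM were scaled by TMM factors. Day 14 minus day 2 was tested in R 4.3.3 with edgeR 4.0.16 (robust quasi-likelihood) in 1 fit of all 20 libraries with 15 residual degrees of freedom, with Benjamini-Hochberg adjustment over all tested genes and a call at 0.05. The steps were tested on simulated data. Alternatives were DESeq2 1.42.0, limma 3.58.1 (voom, with and without quality weights), other scaling and filters, the 8 libraries alone, the replicate number as a term and each library left out. List means use log2 CPM with a prior count of 2. Libraries of a day differed by more than sampling noise, and 4 libraries a day limit the precision, with 1916829 counts in the smallest.

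The members and the 44 gene lists were chosen with earlier results of these data known, so lists carry counts and medians but no test. The rule for named genes took called genes (none), the 10 with the smallest p, a panel of 30 genes and the 2 most abundant members of each list. Of the last, some of the cell type, stress and ribosomal lists are not described, and a few metabolic genes are not reported here. Another 54 named genes were chosen after their values were seen. Promoters came from RefSeq (GRCm38.p6) by symbol.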

Additional observations from a re-analysis of the deposited data

Results flagged for a closer look

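Within the 4 libraries of a day, 1 library stood far from the other 3 in 17 of 352 groups examined, and chance gives about 1 in 20. Of these, 7 were in day 2 replicate 2. That library had 2332 CPM of Fasn, against 9905 to 11042 in the other 3 day 2 libraries, 644 CPM of Cs (others 914 to 949) and 154 CPM of Mpc2 (others 279.9 to 299.98). It was high in Cidec, with 4378 CPM (others 2804 to 3034), in Angptl4, with 476 CPM (others 259 to 290.04), and in Nnat, with 1661 CPM (others 144 to 204). Its mean of the pentose phosphate list was -0.15 on the log2 scale relative to the day 2 mean (others 0.043 to 0.055).

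Day 2 replicate 3 had 1817 CPM of Col3a1 (others 1320.4 to 1382), 335 CPM of Col1a1 (others 214 to 221) and 203 CPM of Atp5h (others 164 to 167), and its mean of the fatty acid and ketone oxidation list was 0.18 (others -0.071 to -0.042). Day 2 replicate 1, the library with the fewest counts, had a T and NK cell list mean of -0.73 (others 0.18 to 0.33). On day 14, replicate 1 had a B cell list mean of 1.68 (others -1.12 to -0.65), replicate 2 had 4041 CPM of Apoe (others 3403 to 3440.01), and replicate 3 had 534 CPM of Rbp4 (others 362 to 391), 50.3 CPM of Angptl8 (others 5.95 to 11.2) and 61.4 CPM of Acsl5 (others 72.4 to 74.1).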

How the results depend on the processing

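The count of genes past an adjusted p under 0.05 was 0 in edgeR with other scaling factors, with library sizes alone, with no filter, with a stricter filter, without day 0 replicate 4 and in limma-voom. It was 134 in DESeq2 (98 higher and 36 lower on day 14), 1160 in limma-voom with quality weights (640 higher and 520 lower) and 1 in edgeR with the 8 libraries alone. The cause of these differences was not tested. Leaving out 1 library gave 0 to 20 calls. Genes at an unadjusted p under 0.05 numbered 3820 with quality weights, against 1847, and 1040 to 2660 with 1 library left out. With 1 library left out, higher matrix genes ranged from 26 to 59, higher glycoprotein genes from 11 to 19, higher immediate early genes from 9 to 15, lower metabolic genes from 54 to 156 and lower oxidative phosphorylation genes from 27 to 62, and quality weights gave 182 lower metabolic genes. List medians ranged under left-out libraries from 0.035 to 0.14 for secreted adipocyte proteins, from -0.063 to 0.12 for adipogenic factors, from -0.15 to 0.16 for retinoid and steroid metabolism and from 0.26 to 0.72 for progenitors. Other medians near 0 also moved by more than 1.5 times, from -0.15 to -0.055 for fatty acid uptake and triglyceride synthesis, from -0.040 to 0.080 for lipolysis, from -0.083 to 0.060 for branched-chain amino acid catabolism and from -0.11 to -0.024 for insulin signalling, and larger ones that did so are given in the results beside the library left out. The secreted adipocyte median was -0.085 with no filter, where more members entered, and 0.20 in limma-voom, and the retinoid median was 0.31 with quality weights. The adipose expansion median was 0.15 with the 8 libraries alone and 0.16 with no filter. The proteoglycan median was 0.32 with the stricter filter and the protease median 0.31 with quality weights. The median of the mitochondrially encoded transcripts was -0.15 in limma-voom.

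Deviations of samples with the same replicate number had correlations of -0.15, 0.31, -0.01 and 0.04 between day 14 and day 2. The 0.31 of replicate 2 was the highest of all pairs, while replicate 1 of day 14 correlated best with replicate 2 of day 2. Library numbers in the column names rose with the replicate number, as 14, 18, 22 and 28 on day 14 and 16, 20, 25 and 30 on day 2. Whether samples of a replicate number were processed together is not given in the labels and was not tested. With the replicate number as a block edgeR called 32 genes, 31 higher and 1 lower on day 14.

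Of 130 named genes, 76 passed the threshold in at least 1 of 18 alternatives and 15 turned in sign in at least 1, all of them genes whose groups overlapped. Signs turned with the setting for Col4a2 (-0.021 with quality weights), Cav1 (0.0027 with library size alone), Cd36 (0.00078 with library size alone and 0.0056 in limma-voom), Cyp2e1 (0.27 in limma-voom, 0.29 with quality weights and 0.19 with the block) and Ehd2 (-0.0031 with other scaling factors, -0.0065 with the stricter filter, -0.0026 in DESeq2, -0.0071 in limma-voom and -0.056 with quality weights). With 1 library left out the log2 change ranged from -0.27 to 0.058 for Col5a3, -0.013 to 0.18 for Col4a2, -0.13 to 0.27 for Col6a3, -0.084 to 0.0050 for Tgm2 and -0.048 to 0.29 for Mmp14. It ranged from -0.040 to 0.17 for Fabp4, -0.087 to 0.076 for Cd36, -0.036 to 0.14 for Lipe, -0.0038 to 0.29 for Ivd, -0.11 to 0.026 for Trarg1 and -0.52 to 0.51 for Cyp2e1. For Cav1 it ranged from -0.069 to 0.044, for Ehd2 from -0.043 to 0.055, for Ucp3 from -0.011 to 0.29 and for Jchain from -0.21 to 1.59.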
